A study of Homo sapiens with 9 samples.

Results

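The Krüppel-like factors (KLFs) KLF2, KLF3, KLF4, KLF5, KLF6, KLF7, KLF9, KLF10, KLF11 and KLF13 were followed in cells that expressed wild-type or mutant MEK1. Their probes were found as every non-control probe that carried one of these symbols as its gene name on the array, which gave 10 of the 36618 named genes. These 10 genes had 13 of the 50598 probes, and 10 of the 13 probes, 1 for each gene, passed the filter on dim probes. Over all genes, 19211 had such a probe. The cells were HEK293, a line derived from human embryonic kidney, which stably expressed haemagglutinin-tagged MEK1 after transfection of a pQCXIP plasmid and selection with puromycin. All 9 sample titles name HEK293, while the source labels of WT replicates 2 and 3 give other numbers after HEK. MEK1 is the kinase that phosphorylates ERK. The WT line carried the unmutated protein, the F53S line a substitution known from the inherited developmental disorders called RASopathies, and the K57N line a substitution known from tumours. Each genotype was 1 stable line grown at steady state and measured on 3 single-colour arrays from independent experiments, so differences between the lines other than the mutation cannot be told apart from its effect.

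KLFs are transcription factors with zinc fingers near the carboxyl end, which bind GC-rich and CACCC-type elements in promoters and enhancers. The rest of each protein decides whether a target gene is activated or repressed: KLF2, KLF4, KLF5, KLF6 and KLF7 recruit acetyltransferases among other partners, KLF3 recruits the corepressor CtBP, and KLF9, KLF10, KLF11 and KLF13 recruit the corepressor Sin3. Several members are early or delayed genes of growth factor signalling, in which ERK takes part.

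Levels below are log2 processed signals less the array's own 75th percentile, so that 0 is the 75th percentile of all non-control signals on that array. That percentile lay at 245, 285 and 376 intensity units on slide 1, which held replicate 1 of each line, and between 695 and 821 units on slide 2, which held replicates 2 and 3. Between 23714 and 26113 probes were well above background on the slide 1 arrays and between 27115 and 29324 on the slide 2 arrays. Because each slide held all 3 lines, the differences described for the members and for called genes are also given with the slide as a term and within each slide. The number of arrays limits the precision of all values. As these are bulk RNA samples, fewer cells that express a gene and less of its RNA per cell cannot be told apart.

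The cell type was checked against marker genes. Of 7 genes known for HEK293 cells, 6 (VIM, KRT8, KRT18, NEFL, PAX2 and LHX1) were well above background on all 9 arrays, and NEFM was so on 6. Of 11 markers of endothelium, blood, fibroblasts, liver and muscle, 5 (COL1A2, DCN, HBB, ALB and MYH2) were well above background on no array and 5 (CDH5, PTPRC, COL1A1, APOA1 and CKM) on all 9. Over all 36618 genes named on the array, 17028 were well above background on all 9. The WT means of PTPRC (−4.02) and CKM (−3.72) were low, beside −3.85 for KLF7, whose levels were near the background. PECAM1, an endothelial adhesion molecule, was well above background on 2 arrays, both of the K57N line. COL1A1, a collagen chain of fibroblasts, had a mean level of −1.38 ± 0.28 (SD, n = 3) in K57N and −0.18 ± 0.49 (SD, n = 3) in WT cells. That difference was −1.20 (SE 0.31), with an adjusted p of 0.0994, of 0.00327 with the slide as a term and of up to 0.350 over the other alternatives, and it was −1.59 within slide 1 and −1.01 within slide 2. Among the HEK293 markers, VIM (−0.032), KRT8 (0.038) and PAX2 (0.066) had K57N minus WT differences near 0 over all arrays, with opposite signs within slides 1 and 2 (−0.39 and 0.15 for VIM, 0.24 and −0.062 for KRT8, −0.65 and 0.42 for PAX2). On slide 2 alone the adjusted p of PAX2 was 0.0267, and with the slide as a term it was 0.854. LHX1 had 0.99 (SE 0.36, adjusted p = 0.261, and 0.0977 with the slide as a term, in a range of 0.0257 to 0.672 over the alternatives), with 1.35 and 0.81 within the slides. Its levels were 3.92, 4.30 and 2.72 on the K57N arrays and 2.57, 2.68 and 2.71 on the WT arrays, so K57N replicate 3 lay near WT. The LHX1 difference was 0.66 without K57N replicate 2 and 1.45 without K57N replicate 3, and it was called in 1 of 21 alternatives. For NEFL the difference was 0.50 (SE 0.17, adjusted p = 0.231, and 0.0193 with the slide as a term, in a range of 0.0045 to 0.80), with 0.20 and 0.65 within the slides. KRT18, an epithelial keratin, had a K57N minus WT difference of 0.72 (SE 0.21, adjusted p = 0.144, 0.00593 with the slide as a term, and between 0.0045 and 0.542 over the alternatives), with 0.80 and 0.67 within the slides. The part of these markers in the KLF results was not tested.

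MAP2K1, which encodes MEK1, had levels of 2.36, 2.34 and 2.42 on the WT arrays, 2.50, 2.39 and 2.46 on the F53S arrays and 2.92, 2.81 and 2.82 on the K57N arrays. All 3 K57N values lay above the other 6. The difference between K57N and WT was 0.48 (SE 0.13), a 1.39-fold higher signal with an adjusted p of 0.135, of 0.00758 with the slide as a term and of up to 0.700 over the other alternatives. Within slides 1 and 2 it was 0.56 and 0.43. Whether the probe (chr15:66783224-66783283, hg19) lies in the expressed construct was not examined, so the share of the transgene in this signal is not known.

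KLF4, an activator and repressor best known as a reprogramming factor and as a regulator of epithelial and endothelial differentiation, was the member with the highest K57N minus WT value. It was the only member called in any of the 3 comparisons between lines, where a call needed an adjusted p below 0.05 in limma and a change of more than 2-fold. Its level was −1.59, −1.70 and −1.75 on the 3 WT arrays, −1.50, −1.47 and −1.48 on the F53S arrays and −0.37, −0.81 and −0.50 on the K57N arrays. The 3 K57N arrays were the highest of the 9, and the F53S arrays also lay above all WT arrays by a smaller distance. The probe, whose sequence is shown because its signal carries this result, lies at chr9:110248049-110248108 on the minus strand (hg19) and reads 5′ to 3′ as the array design gives it.
KLF4 probe: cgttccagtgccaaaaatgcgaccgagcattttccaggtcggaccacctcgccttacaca

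The KLF4 signal of K57N cells was 2.17-fold that of WT cells (log2 difference 1.12, SE 0.16, 95% confidence interval of the fold 1.68 to 2.80, adjusted p = 0.0104). The difference was 1.22 within slide 1, which holds 1 array per line, and 1.07 within slide 2, which holds 2 per line. The adjusted p was 0.000767 with the slide as a term, and over all 24 alternative settings it ranged from 0.000767 to 0.147. The call was kept in 18 of these 24 settings, some of which could not end it, as they only drop the fold limit from fits that kept it. It ended without WT replicate 2 (adjusted p = 0.0569), without WT replicate 3 (adjusted p = 0.0595) and without K57N replicate 3 (adjusted p = 0.0646). It also ended with a normexp background correction, where the difference was 0.82 (adjusted p = 0.147), without a filter on dim probes (adjusted p = 0.105) and in the methods' t-test after adjustment (adjusted p = 0.0828). In F53S cells the KLF4 difference from WT was 0.19 (SE 0.16, 95% confidence interval −0.18 to 0.56, adjusted p = 1.0, also with the slide as a term), and 0.089 and 0.25 within slides 1 and 2. The direct comparison of K57N with F53S gave 0.92 (SE 0.16, 1.89-fold, adjusted p = 0.0374), which passed the p limit but not the 2-fold limit. That p was above 0.05 when any single array other than WT replicate 1 was left out (0.071 to 0.179), with normexp (0.403), without a filter on dim probes (0.299), with only the 2 lines in the fit (0.129) and in the methods' t-test after adjustment (0.148). It was 0.00291 with the slide as a term. Within slides 1 and 2 that difference was 1.13 and 0.82.

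**Figure D1:**
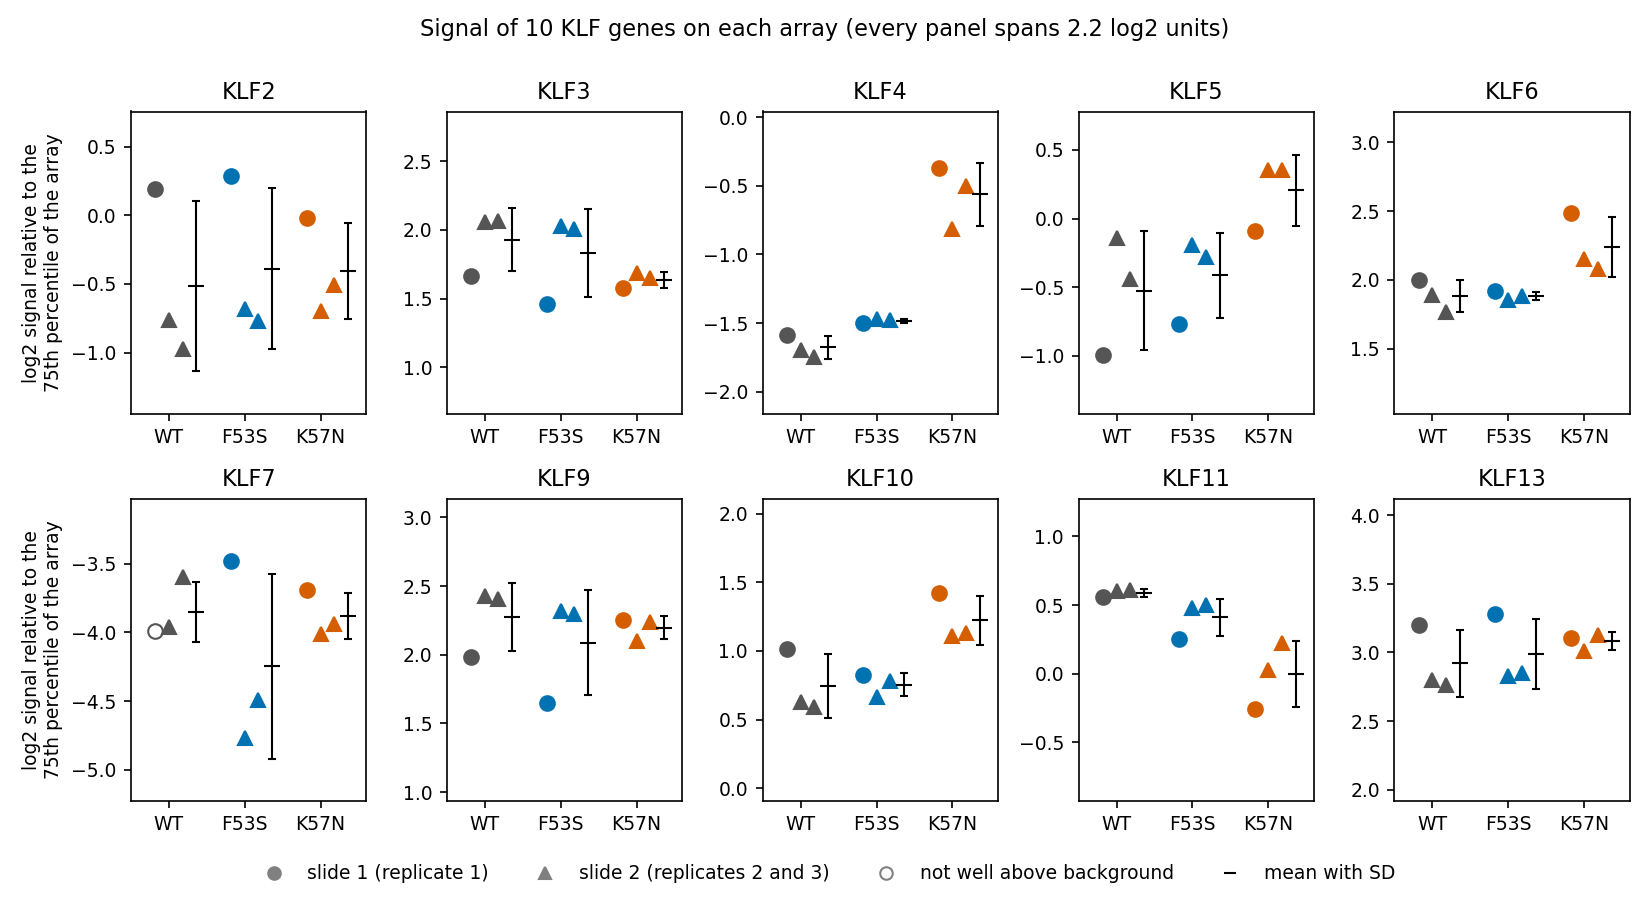
Level of each of the 10 KLF genes (vertical axes, log2 processed signal relative to the array's 75th percentile) in the WT, F53S and K57N lines, with circles for slide 1, triangles for slide 2, an open symbol where the signal was not well above background, and the mean ± SD of 3 arrays beside them. KLF4 lies between −0.81 and −0.37 on the K57N arrays and between −1.75 and −1.47 on the other 6.

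The count of members was read against all genes, though the members were chosen with earlier results of these data known. Between K57N and WT, 1 of the 10 members (KLF4) was called higher, where 1.52% of the 19211 genes were called higher. For lower calls, 0 of 10 members stood beside 0.739% of all genes. The methods' t-test without adjustment and with the fold limit gave 1 higher member (KLF4), beside 2.27% of all genes, and 0 lower, beside 1.62%. Limma at an unadjusted p below 0.05 with no fold limit gave 3 higher members (KLF4, KLF5 and KLF10) beside 6.15% of all genes, and 1 lower member (KLF11) beside 7.04%. Between F53S and WT, limma called 0 members higher and 0 lower, as it did over all genes (0% in either direction). At an unadjusted p below 0.05, limma gave 0 members in that comparison beside 0.619% of all genes higher and 0.271% lower, and the methods' t-test with the fold limit gave 0 members, beside 0.125% of all genes higher and 0% lower. Between K57N and F53S, 0 members were called higher, beside 0.953% of all genes, and 0 lower, beside 0.245%. At an unadjusted p below 0.05 with no fold limit that comparison had 3 higher members (KLF4, KLF5 and KLF10) beside 4.88% of all genes and 1 lower member (KLF11) beside 5.5%, and the methods' t-test with the fold limit gave 0, beside 1.73% of all genes higher and 0.859% lower.

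Arrays that did not overlap between lines were more frequent than calls. Between K57N and WT the 3 K57N arrays lay above all 3 WT arrays for 4 members (KLF4, KLF5, KLF6 and KLF10), against 10.2% of all genes, and below them for KLF11, against 12.7%. The same 4 members and KLF11 were separated between K57N and F53S, against 8.3% and 10.3% of all genes. Between F53S and WT, 1 member (KLF4) lay above and 1 (KLF11) below, against 1.54% and 1.62%. Under a rule added after seeing the data, the slide as a term and an adjusted p below 0.05 as the only limit, the same 4 members were higher in K57N than in WT cells (8.58% of all genes) and KLF11 was lower (10.8% of all genes). By that rule KLF4, KLF5 and KLF10 were higher in K57N than in F53S (5.84% of all genes) and KLF11 was lower (7.53% of all genes). With the replicate number as a block in place of the slide, KLF6 in K57N against WT (adjusted p = 0.0746) and KLF11 in K57N against F53S (adjusted p = 0.0680) no longer passed it. Between F53S and WT limma with the slide as a term called 0 members and 0% of all genes in either direction, and it gave 0 members at an unadjusted p below 0.05.

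KLF5, an activator of proliferation genes in basal epithelia and smooth muscle, had levels of −0.99, −0.14 and −0.44 on the WT arrays, −0.77, −0.19 and −0.28 on the F53S arrays and −0.092, 0.35 and 0.35 on the K57N arrays. The K57N arrays lay above the WT and F53S arrays, narrowly where slide 1 met slide 2, since replicate 1 was the lowest array of every line. The difference between K57N and WT was 0.73 (SE 0.27, 95% confidence interval 0.11 to 1.35), or 1.66-fold, with an adjusted p of 0.266. It was 0.90 within slide 1 and 0.64 within slide 2. The slide term lowered the SE to 0.11 and the adjusted p to 0.00425, the low end of a range over the alternatives that reached 0.734. The difference between K57N and F53S was 0.62 (SE 0.27, adjusted p = 0.491, and 0.0119 with the slide as a term, in a range of 0.0119 to 1.0 over the alternatives), with 0.67 within slide 1 and 0.59 within slide 2. The KLF5 probe lies at chr13:73650979-73651038 (hg19).

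KLF6, a factor that is induced early after injury and by growth factors, had levels of 2.0, 1.89 and 1.76 on the WT arrays, 1.92, 1.86 and 1.88 on the F53S arrays and 2.49, 2.15 and 2.08 on the K57N arrays. The lowest K57N array was just above the highest WT array. K57N minus WT was 0.35 (SE 0.16, 95% confidence interval −0.02 to 0.73, adjusted p = 0.419), which was 0.49 within slide 1 and 0.29 within slide 2. With 1 array left out this difference ran from 0.23 to 0.43. Its adjusted p was 0.0437 with the slide as a term and 0.0746 with the replicate number as a block, on either side of the 0.05 limit. Over the alternatives the adjusted p of this difference ranged from 0.0437 to 1.0. Beside the tested probe (chr10:3821387-3821446, hg19), KLF6 had 2 probes that did not pass the filter, 1 of them dim on all 9 arrays.

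KLF11, a repressor through Sin3 that takes part in TGF-β signalling and in pancreatic β-cell gene control, was the member with the lowest K57N minus WT value. Its level was 0.56, 0.60 and 0.61 on the WT arrays, 0.25, 0.48 and 0.50 on the F53S arrays and −0.26, 0.028 and 0.22 on the K57N arrays. The 3 lines were fully separated, in the order WT, F53S and K57N from high to low. The neighbours WT and F53S did not differ beyond their spread in the test (difference −0.18, SE 0.17, adjusted p = 1.0, also with the slide as a term, and −0.30 and −0.12 within slides 1 and 2). K57N minus WT was −0.59 (SE 0.17, 95% confidence interval −0.98 to −0.20, adjusted p = 0.141), a signal 1.51-fold lower. It was −0.81 within slide 1 and −0.48 within slide 2. The slide term gave an adjusted p of 0.00777, the lowest in a range over the alternatives that reached 0.599. K57N minus F53S was −0.41 (SE 0.17, adjusted p = 0.449), and −0.51 and −0.36 within slides 1 and 2. The adjusted p of that difference was 0.0389 with the slide as a term and 0.0680 with the replicate block, in a range of 0.0389 to 1.0 over the alternatives. The tested probe lies at chr2:10194646-10194705 (hg19), and a second KLF11 probe stayed at background on all 9 arrays.

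**Figure D2:**
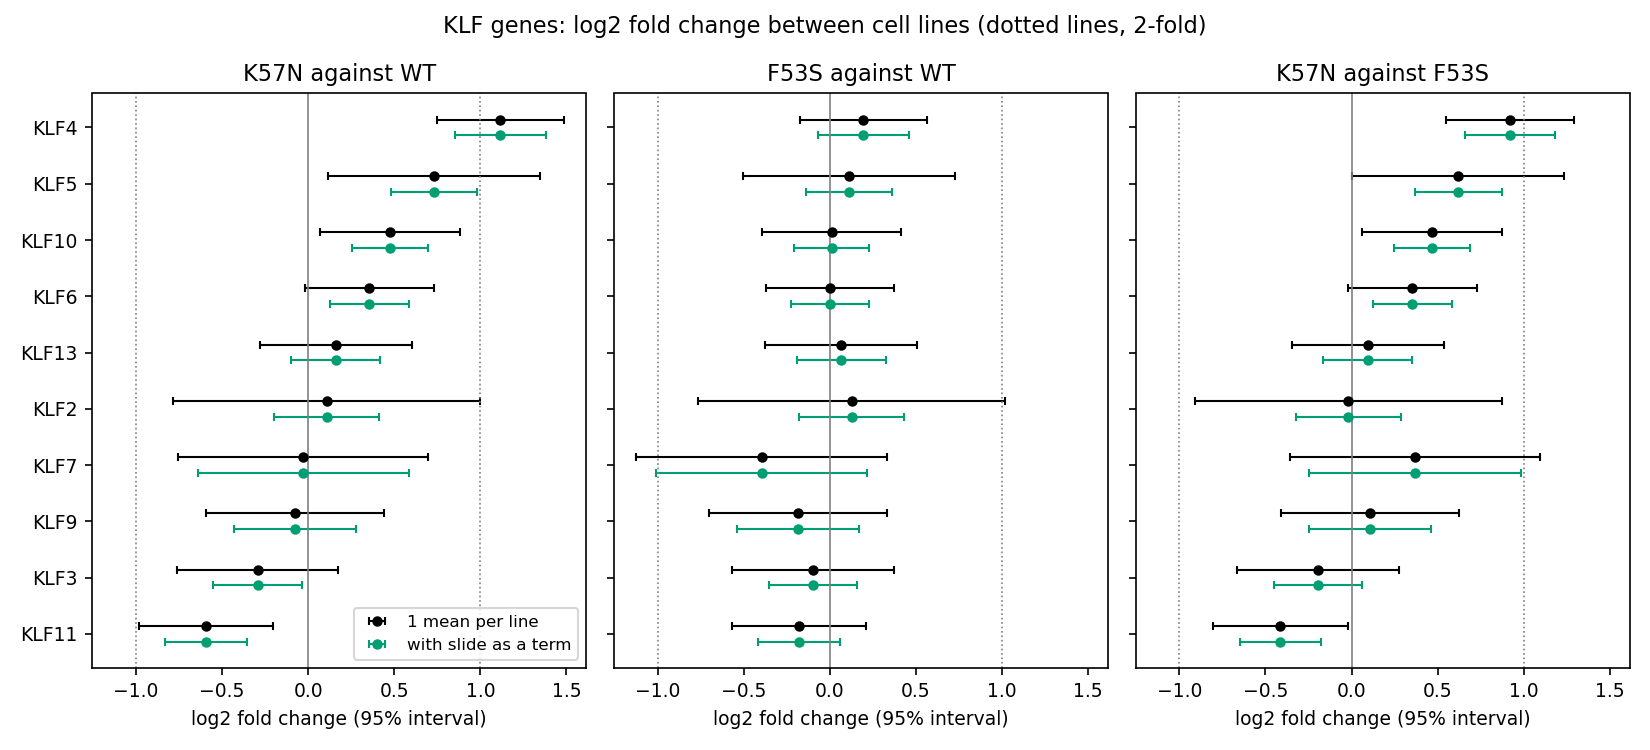
Log2 difference of each KLF gene (vertical axis) for K57N minus WT, F53S minus WT and K57N minus F53S (horizontal axis, log2 units), with 95% confidence intervals from the limma fit over 9 arrays (black, 1 mean per line, and green, with the slide as a term; dotted lines, 2-fold). KLF4 is at 1.12 for K57N minus WT and 0.19 for F53S minus WT, and KLF11 is at −0.59 and −0.18.

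Promoter windows are shown for the 4 members with a RefSeq window whose K57N and WT arrays did not overlap, because KLF proteins themselves bind GC boxes and CACCC boxes. RefSeq promoter windows (GRCh38.p14, 250 bases before to 50 bases after a transcription start) matched 8 of the 10 members, with 13 windows. KLF3 and KLF10 are the others. GC boxes (GGGCGG) and CACCC boxes (CACCC), searched on both strands, are in capitals and may overlap each other. The windows are KLF4 at chr9:107489720-107490019 (minus strand, 4 GC boxes and 0 CACCC boxes), KLF5 at chr13:73058755-73059054 (plus strand, 2 and 2), KLF6 at chr10:3785160-3785459 (minus strand, 2 and 0) and KLF11 at chr2:10043971-10044270 (plus strand, 7 and 1).
KLF4 promoter: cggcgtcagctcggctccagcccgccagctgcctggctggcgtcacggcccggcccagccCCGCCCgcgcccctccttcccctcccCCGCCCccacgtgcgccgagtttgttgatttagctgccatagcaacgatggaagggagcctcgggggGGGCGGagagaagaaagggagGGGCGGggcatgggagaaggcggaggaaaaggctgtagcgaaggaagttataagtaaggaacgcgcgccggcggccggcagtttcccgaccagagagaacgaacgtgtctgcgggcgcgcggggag
KLF5 promoter: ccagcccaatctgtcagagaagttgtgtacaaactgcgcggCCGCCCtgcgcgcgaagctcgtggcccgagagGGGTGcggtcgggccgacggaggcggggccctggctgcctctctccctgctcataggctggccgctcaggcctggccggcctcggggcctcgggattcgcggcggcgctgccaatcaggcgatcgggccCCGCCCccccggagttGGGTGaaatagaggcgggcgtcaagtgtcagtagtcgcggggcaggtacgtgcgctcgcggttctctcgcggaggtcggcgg
KLF6 promoter: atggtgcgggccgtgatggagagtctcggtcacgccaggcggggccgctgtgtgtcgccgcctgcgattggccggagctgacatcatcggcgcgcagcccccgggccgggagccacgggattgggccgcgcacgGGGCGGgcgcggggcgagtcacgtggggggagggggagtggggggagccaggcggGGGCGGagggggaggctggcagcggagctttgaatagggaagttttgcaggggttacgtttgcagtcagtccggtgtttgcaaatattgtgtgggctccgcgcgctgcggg
KLF11 promoter: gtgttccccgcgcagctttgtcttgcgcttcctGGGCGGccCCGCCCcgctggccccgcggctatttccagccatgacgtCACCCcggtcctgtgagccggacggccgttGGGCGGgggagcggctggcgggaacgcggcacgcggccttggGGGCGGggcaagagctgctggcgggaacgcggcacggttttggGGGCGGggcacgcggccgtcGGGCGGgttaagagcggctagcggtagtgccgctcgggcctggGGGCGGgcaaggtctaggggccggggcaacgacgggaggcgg

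Over all 34943 windows of 300 bases, 44.9% held a GC box and 59.8% a CACCC box, and the median GC content was 58.7%. The 4 windows shown had GC contents of 69.0% (KLF4), 71.3% (KLF5), 70.7% (KLF6) and 75.3% (KLF11). Over the 13 member windows the GC content ran from 32.7% (KLF9) to 80.7% (KLF2). The KLF11 window also held a cAMP response element (TGACGTCA), a sequence found in 1.84% of all windows, at bases 75 to 82 of the window, where it overlaps the CACCC box. An ETS core (CCGGAA, in 17.2% of all windows) and an AP-1 site (TGANTCA, in 7.72%), motifs of factors downstream of ERK, were in 0 of the 13 member windows. A CArG box, a further motif searched (in 1.3% of all windows), was in a KLF7 window (chr2:207167197-207167496, bases 189 to 198). KLF5 has a second window (chr13:73054726-73055025) with 0 GC boxes, 1 CACCC box and a GC content of 40.7%. KLF11 has a second window with 2 GC boxes, 0 CACCC boxes and 77.3%. A match describes the letters of the window and not binding of a factor, and the absence of a match says nothing about distant elements.

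KLF10, a Sin3-recruiting repressor that TGF-β induces early, had levels of 1.02, 0.63 and 0.60 on the WT arrays, 0.82, 0.66 and 0.78 on the F53S arrays and 1.42, 1.11 and 1.13 on the K57N arrays. The K57N arrays lay above all others, with the lowest at 1.11 and the highest WT array at 1.02. K57N minus WT was 0.48 (SE 0.18, 95% confidence interval 0.07 to 0.88, adjusted p = 0.274), which is 1.39-fold. It was 0.41 within slide 1 and 0.51 within slide 2. Its adjusted p with the slide term was 0.0131, within a range of 0.0105 to 0.866 over the alternatives. K57N minus F53S was 0.47 (SE 0.18, adjusted p = 0.391, and 0.0205 with the slide as a term, in a range of 0.0205 to 1.0 over the alternatives), with 0.60 within slide 1 and 0.40 within slide 2.

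KLF2, KLF3, KLF7, KLF9 and KLF13 did not separate the lines, and their levels overlapped between WT and each mutant. KLF2, an endothelial and lymphocyte quiescence factor, had a K57N minus WT value of 0.11 (SE 0.39, adjusted p = 0.987, and 0.604 with the slide as a term), with −0.21 within slide 1 and 0.27 within slide 2. KLF3, a CtBP-dependent repressor, had −0.29 (SE 0.21, adjusted p = 0.690), with −0.093 within slide 1 and −0.39 within slide 2. For KLF3 the slide term gave an adjusted p of 0.106, in a range of 0.0127 to 1.0 over the alternatives. KLF9, a factor induced by glucocorticoid and thyroid hormone, had −0.076 (SE 0.23, adjusted p = 0.982, and 0.759 with the slide as a term), with 0.26 within slide 1 and −0.25 within slide 2. KLF13, a regulator of late chemokine transcription in T cells, had 0.16 (SE 0.19, adjusted p = 0.898), with −0.094 within slide 1 and 0.29 within slide 2. With 1 array left out the KLF13 value ran from 0.081 to 0.30. The adjusted p of KLF13 was 0.352 with the slide as a term and ranged from 0.0445, on slide 2 alone, to 1.0 over the alternatives. The sign of the difference turned between the slides for KLF2, KLF7, KLF9 and KLF13. KLF7, a neuronal factor, had levels near the background: its signal was well above background on 2 of 3 WT arrays and on all 6 mutant arrays, and its K57N minus WT value was −0.029 (SE 0.32, adjusted p = 0.994, and 0.951 with the slide as a term), with 0.30 within slide 1 and −0.19 within slide 2.

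Some of this spread followed the slides, where slide 1 cannot be told apart from the experiment of replicate 1. KLF2 was higher on slide 1 than on slide 2 by 1.06 (WT), 1.01 (F53S) and 0.58 (K57N). KLF13 was higher on slide 1 by 0.42, 0.44 and 0.038 in the same lines, and KLF5 was lower, with slide 1 minus slide 2 values of −0.71, −0.53 and −0.45. For KLF4 these values were 0.13, −0.023 and 0.29, smaller than its difference of 1.12 between K57N and WT. For other members they came closer in size to that difference. The KLF5 value of −0.71 in WT stood beside a K57N minus WT difference of 0.73. KLF6 had 0.17, 0.046 and 0.37 beside 0.35, KLF10 had 0.40, 0.10 and 0.30 beside 0.48, and KLF11 had −0.050, −0.24 and −0.38 beside −0.59.

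**Figure D3:**
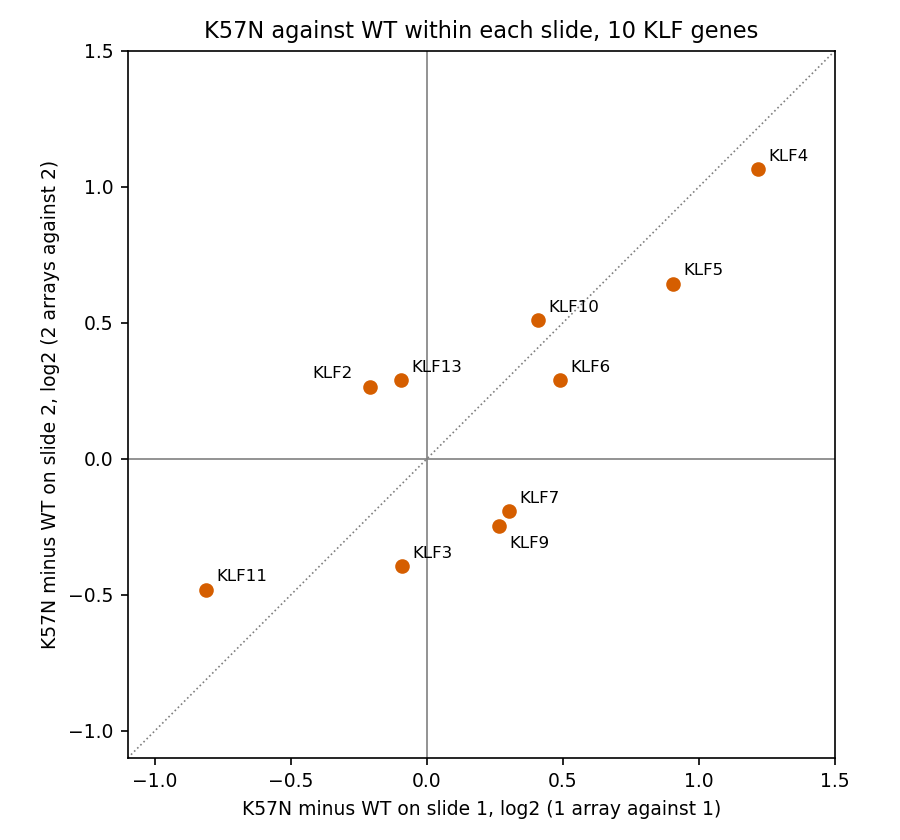
K57N minus WT difference of each KLF gene within slide 1 (horizontal axis, log2, 1 array per line) against that within slide 2 (vertical axis, log2, 2 arrays per line). KLF4 lies at 1.22 and 1.07, KLF11 at −0.81 and −0.48, while KLF2, KLF7, KLF9 and KLF13 have opposite signs on the 2 slides.

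None of the members was called in F53S cells. The F53S minus WT values of the 10 members ran from −0.40 for KLF7 to 0.19 for KLF4, with a median of 0.0054, and all had an adjusted p of 1.0, also with the slide as a term. The KLF7 value was 0.51 within slide 1 and −0.85 within slide 2, as its F53S levels were −3.48 on slide 1 and −4.77 and −4.49 on slide 2. The median K57N minus WT value of the members was 0.13, with 6 positive and 4 negative, beside −0.057 over all genes, of which 42.9% were positive. It was 0.28 within either slide, beside −0.14 (slide 1) and −0.021 (slide 2) over all genes. The median K57N minus F53S value was 0.23 (0.34 and 0.24 within the slides), with 7 positive and 3 negative, beside −0.066 over all genes (−0.19 and −0.013). These comparisons share arrays.

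The genes around the members were read in 3 lists, also chosen with earlier results of these data known. Of 17 other KLF and SP family genes, 16 were on the array and 14 were tested. Limma called 0 of the 14 in the K57N and WT comparison, beside 1.52% of all genes higher and 0.739% lower. It gave 0 at an unadjusted p below 0.05, beside 6.15% and 7.04%, and the methods' t-test with the fold limit gave 0, beside 2.27% and 1.62%. The median difference of the 14 was −0.11, also within either slide, with 4 positive and 10 negative values. The highest was KLF8, a CtBP-dependent repressor, at 0.29 (adjusted p = 0.641, and 0.16 without WT replicate 3), and the lowest was SP7, an osteoblast factor, at −0.52 (adjusted p = 0.563, and −0.30 without WT replicate 1). SP6, named after its value was seen, was the only gene of this list with an adjusted p below 0.05 with the slide as a term (log2 difference −0.48, from −0.67 to −0.17 over the alternatives, adjusted p = 0.0291 in a range of 0.0291 to 1.0), where 10.8% of all genes were lower by that rule. Of the 24 regulators and partners, all tested, limma called 0, beside 1.52% of all genes higher and 0.739% lower. It gave 0 of the 24 at an unadjusted p below 0.05 (6.15% and 7.04% of all genes), as did the methods' t-test with the fold limit (2.27% and 1.62%). The median of this list was −0.040 (−0.068 and −0.042 within the slides). Its values ran from −0.44 for CREBBP, a coactivator (adjusted p = 0.526, and −0.20 without K57N replicate 1), to 0.23 for HDAC2, a corepressor subunit (adjusted p = 0.947), a value that turned to −0.055 without WT replicate 1. FBXW7 and BTRC, ligase subunits that act on KLF proteins, were named after their values were seen: they were the 2 genes of that list with an adjusted p below 0.05 with the slide as a term (log2 differences −0.39 and −0.33, adjusted p = 0.0197 and 0.0490, ranges over the alternatives from these values to 1.0, smallest differences −0.24 and −0.14, both without K57N replicate 1), again beside 10.8% of all genes.

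Of 20 genes described as activated or repressed by KLF factors, 14 were tested. In K57N against WT, 3 were called higher, beside 1.52% of all genes, and 0 lower, beside 0.739%. The list was chosen with earlier results of these data known, so its count is not an independent test of KLF targets. Limma at an unadjusted p below 0.05 gave 3 higher and 0 lower as well, beside 6.15% and 7.04% of all genes. The methods' t-test with the fold limit also gave 3 and 0, beside 2.27% and 1.62%. With the slide as a term and no fold limit, CCND1 (log2 difference 0.52, and 0.25 without WT replicate 1, adjusted p = 0.00956, up to 1.0 over the alternatives) was a further higher target and MAOA (−0.37, adjusted p = 0.0444, in a range of 0.0429 to 1.0) a lower target, both named after their values were seen. By that rule 8.58% of all genes were higher and 10.8% lower. TGFB1, the cytokine gene described as a KLF6 target, had levels of 0.60, 0.093 and 0.12 on the WT arrays, 1.16, 0.56 and 0.68 on the F53S arrays and 3.12, 2.86 and 2.82 on the K57N arrays. It rose 6.36-fold from WT to K57N cells (log2 difference 2.67, SE 0.22, adjusted p = 0.000751), with 2.53 within slide 1 and 2.74 within slide 2, and the call held in each of 21 alternatives. Its adjusted p was 5.59e-06 with the slide as a term and ranged up to 0.0438 over these alternatives. THBD, the thrombomodulin gene described as a KLF2 and KLF4 target, had levels of −0.98, −1.24 and −1.19 on the WT arrays, −0.57, −0.71 and −0.72 on the F53S arrays and 2.27, 0.85 and 0.91 on the K57N arrays. It was 5.59-fold higher (log2 difference 2.48, SE 0.35, adjusted p = 0.00951), with 3.25 and 2.10 within the slides. The adjusted p of THBD was 0.000711 with the slide as a term, and its call ended in the methods' t-test after adjustment (adjusted p = 0.146), the highest of a range that began at 0.00031. PLAU, the urokinase gene and a described KLF6 target, had levels of −0.52, −0.99 and −1.1 on the WT arrays, 0.20, −0.51 and −0.60 on the F53S arrays and 1.86, 0.82 and 0.80 on the K57N arrays. It was 4.08-fold higher in K57N against WT (log2 difference 2.03, SE 0.35, adjusted p = 0.0215), with 2.38 and 1.85 within the slides and an adjusted p of 6.29e-05 with the slide as a term. That call ended without WT replicate 2 (adjusted p = 0.0915), WT replicate 3 (0.101), K57N replicate 2 (0.0577) or K57N replicate 3 (0.0571), without a filter on dim probes (0.0957) and in the methods' t-test after adjustment (0.153). All 3 of these had K57N arrays above all WT and F53S arrays. The median of the 14 tested targets was 0.00065, with 7 positive and 7 negative, and it was −0.13 within slide 1 and 0.14 within slide 2. As the list mixes genes described as activated and as repressed, this median does not tell whether targets moved. In the K57N and F53S comparison 2 targets were called higher, beside 0.953% of all genes, and 0 lower, beside 0.245%. They were TGFB1 (log2 difference 2.14, SE 0.22, adjusted p = 0.00444, and 3.12e-05 with the slide as a term), with 1.97 and 2.23 within the slides, and THBD (log2 difference 2.01, SE 0.35, adjusted p = 0.0374, and 0.00298 with the slide as a term), with 2.84 and 1.60 within the slides. PLAU was not called (1.47, SE 0.35, adjusted p = 0.115, with 1.66 and 1.37 within the slides). With the slide as a term PLAU was called in that comparison (adjusted p = 0.000502), as it was in 3 of 21 alternatives, over which its adjusted p reached 0.401. The THBD call ended when any single array other than K57N replicate 1 was left out (adjusted p from 0.0505 to 0.151), with normexp (0.0824), without a filter on dim probes (0.170), with only the 2 lines in the fit (0.123) and in the methods' t-test after adjustment (0.287). It held in 9 of 21 alternatives, and the TGFB1 call ended in the methods' t-test after adjustment (adjusted p = 0.0777). In F53S minus WT limma called 0 genes of the 3 lists, as it did over all genes (0% in either direction). At an unadjusted p below 0.05 it gave 1 (TGFB1, higher), beside 0.619% of all genes higher and 0.271% lower. The TGFB1 difference was 0.53, with 0.56 and 0.51 within the slides, and 0.35 without F53S replicate 1. Its adjusted p was 0.229 with the slide as a term. The methods' t-test with the fold limit gave 0, beside 0.125% of all genes higher and 0% lower. The medians were 0.018 for other KLF and SP genes, 0.0018 for regulators and partners and 0.11 for targets.

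**Figure D4:**
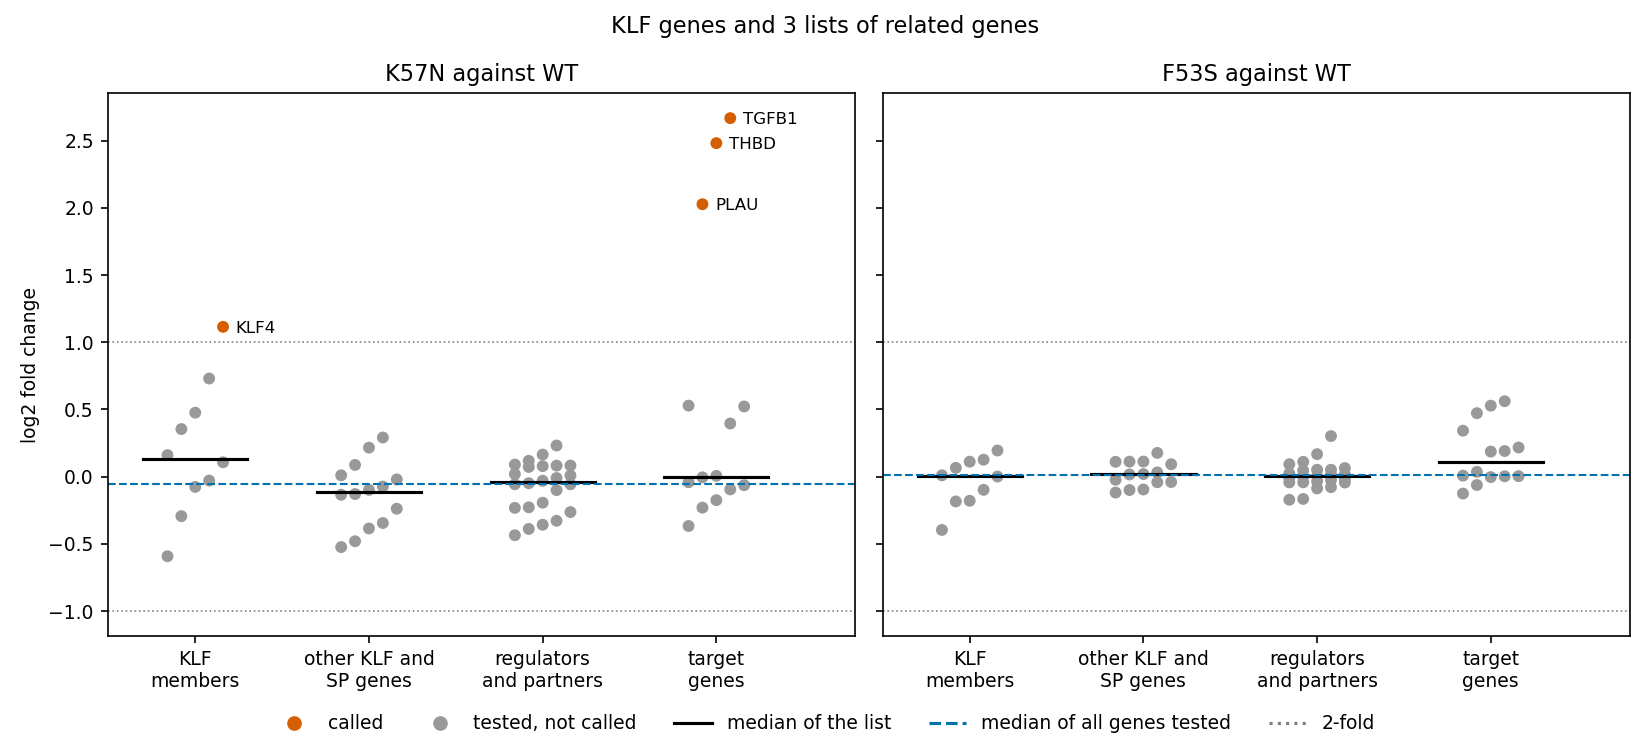
Log2 differences (vertical axis) of K57N minus WT (left) and F53S minus WT (right) for the KLF members and the 3 gene lists, with a point for each gene (orange, called), a bar for the list's median and a dashed line for the median of all genes. In K57N cells TGFB1, THBD and PLAU lie at 2.67, 2.48 and 2.03 while the median of the targets is 0.00065, and the other KLF and SP genes lie between −0.52 and 0.29. The targets mix genes described as activated and as repressed by KLF factors.

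The genes whose levels ran most alike with KLF4 were found over the 9 arrays after subtracting each slide's mean, among 17027 other genes well above background on all arrays. They were GTF2B (r = 0.995), ITPRIP (r = 0.995), NUMB (r = 0.993), CA13 (r = 0.992) and MLKL (r = 0.991). Of these, 2 were called in K57N against WT. ITPRIP had a difference of 1.24 (SE 0.24, adjusted p = 0.0344, and 0.00025 with the slide as a term), with 1.39 and 1.16 within the slides, and its call ended in 10 of 21 alternatives (adjusted p up to 0.18). CA13 had 1.26 (SE 0.21, adjusted p = 0.0174, and 0.000696 with the slide as a term), with 1.5 and 1.14 within the slides, and its call ended in 8 of 21 alternatives, in 7 by the adjusted p (up to 0.119) and with normexp by the fold limit (0.93). The other 3 were not called: GTF2B at 0.67 (SE 0.41, adjusted p = 0.614, and 0.33 without WT replicate 1), NUMB at 0.46 (SE 0.14, adjusted p = 0.174) and MLKL at 0.99 (SE 0.26, adjusted p = 0.107). With the slide as a term their adjusted p was 0.00274, 0.00939 and 0.00146 in that order, each with a change below 2-fold. KLF5 stood at rank 386 (r = 0.956), KLF10 at rank 395 (r = 0.956) and KLF6 at rank 847 (r = 0.920) among these genes. The other members ranked were KLF13 (r = 0.509), KLF2 (r = 0.197), KLF9 (r = 0.103), KLF3 (r = −0.712) and KLF11 (r = −0.913). The genes most alike with KLF11 were PIK3IP1 (r = 0.990), MIF4GD (r = 0.989), SNX7 (r = 0.989), MBOAT1 (r = 0.988) and KLLN (r = 0.987), none of them called in K57N against WT. Their differences were −1.11 (SE 0.32, adjusted p = 0.136, and −0.56 with normexp), −0.59 (SE 0.26, adjusted p = 0.392, and −0.37 without WT replicate 1), −0.22 (SE 0.13, adjusted p = 0.621), −0.59 (SE 0.17, adjusted p = 0.152) and −1.40 (SE 0.35, adjusted p = 0.0901) in that order. With the slide as a term the adjusted p was 0.00145, 0.00548, 0.112, 0.0117 and 0.00294 in the same order. By that fit PIK3IP1 and KLLN also passed the 2-fold limit and were called. Over the alternatives PIK3IP1 was called in 2 of 21 and KLLN in 3 of 21. These coefficients describe 9 arrays of 3 lines, and every gene that separates the lines in the same way reaches a high value.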

How the data were processed

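RNA of 9 samples was hybridised to single-colour Agilent arrays, 3 per line. The deposited scanner files give an intensity per spot, as the authors extracted it with Agilent Feature Extraction 10.10.1.1. The deposited log2 table of the authors lay within 0.02 of log2 processed intensity less a constant for 99.4% to 99.6% of probes; the normalization between arrays is not given in the sources used here, and this table served as an alternative. Control and outlier spots were left out, repeated spots averaged, and each array's 75th percentile subtracted from log2 processed intensity. Probes with signal well above background on each of the 3 arrays of any line were tested with limma 3.58.1 in R 4.3.3 with 1 mean per line over all 9 arrays, and Benjamini-Hochberg adjustment covered all 25400 tested probes. A gene was its tested probe with the highest mean signal. The scripts were tested on simulated data. Samples of the same replicate number deviated together (r from 0.341 to 0.871 over all arrays, from 0.0481 to 0.206 within slide 2). Slide 1 held replicate 1 of each line, so the slide cannot be told apart from that replicate's experiment. Alternatives changed the background correction, scaling, dim-probe filter, probe summary, samples fitted, slide, replicate block, test, fold limit and array left out; the slide and replicate blocks without a fold limit were chosen after seeing the data. Symbols came from the array, and 28173 of the 50598 probes were named through RefSeq. All members were named, and of each list the called genes or, with none called, the highest and lowest. Members and lists were chosen with earlier results of these data known.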

Additional observations from a re-analysis of the deposited data

Results flagged for a closer look

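The difference of KLF4 from WT was larger in K57N than in F53S cells by 0.92 on the log2 scale (SE 0.16, adjusted p = 0.0374 in limma) as a direct test of the mutant lines. Over the alternatives the adjusted p ranged from 0.00291 to 0.403, and with 1 array left out from 0.0451 to 0.179, so its place below 0.05 depended on the setting. KLF4 was higher in all 3 K57N arrays than in all 3 F53S arrays.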

How the results depend on the processing

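The 10 members were recomputed under 24 alternatives. The count of members called higher in K57N cells against WT was 1 and became 0 with the normexp background correction, with no filter on dim probes and in the methods' t-test after adjustment, and it ranged from 0 to 1 when each array was left out. The share of all genes called higher also fell, from 1.52% to 0.755%, 0.382% and 0.427% in the same 3 settings, and lay between 0.817% and 1.78% over the left-out arrays. With no fold limit the member count became 4 with the slide as a block (8.58% of all genes) and 3 with the replicate block (6.66%), and the count called lower went from 0 to 1 with each of these (10.8% and 8.11% of all genes). For K57N against F53S the higher count went from 0 to 1 with no fold limit (1.03% of all genes) and to 3 with the slide (5.84%) or the replicate block (4.07%) and no fold limit, and the lower count to 1 with the slide block and no fold limit (7.53%). The F53S against WT counts stayed at 0. With no filter the SE of KLF4 was 0.21 in place of 0.16 and more probes were adjusted for. The added rules drop the fold limit by construction. For the other changes the cause was not tested.

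The replicate block kept KLF4 called in K57N against WT (log2 difference 1.12, adjusted p = 0.00244) and, at the 2-fold limit, changed no other call. Without a fold limit it differed from the slide block for KLF6 in K57N against WT and for KLF11 in K57N against F53S, whose values stand beside them.

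The alternatives gave 717 values of single members. Many of these repeat the main value by construction, as the blocks, tests, fold limits and probe filters leave it unchanged. So do fits without an array of the line not compared. Of the 717 values, 29 changed sign, all of them uncalled. In K57N against WT these were KLF7 with the authors' log2 table (0.0067) and, over the left-out arrays, KLF2 (−0.12 to 0.46), KLF7 (−0.12 to 0.096) and KLF9 (−0.22 to 0.00085). In F53S against WT they were KLF6 with quantile normalization (−0.014) and, over the left-out arrays, KLF2 (−0.21 to 0.48), KLF3 (−0.23 to 0.089), KLF5 (−0.12 to 0.30), KLF6 (−0.059 to 0.059), KLF9 (−0.33 to 0.036), KLF10 (−0.065 to 0.14) and KLF13 (−0.081 to 0.21). In K57N against F53S they were KLF2 with quantile normalization (0.017), with the authors' log2 table (0.015), within slide 2 (0.12) and over the left-out arrays (−0.21 to 0.32), and KLF9 within slide 2 (−0.14) and over the left-out arrays (−0.11 to 0.22). Signal close to background limits KLF7.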
